A study of Mus musculus with 32 samples.

Results

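The genes described here are 8 genes of Schwann cells and of the myelin of peripheral nerves, namely Sox10, Cdh19, Ngfr, Gfra3, S100b, Mbp, Prx and Pmp2. They were chosen by name, and each was looked up by its symbol in a table of read counts for 39676 mouse genes. A row was found for 6 of the 8 genes, and Sox10 and Gfra3 are not analysed here. The counts come from RNA sequencing of 32 whole tumors, 1 per mouse, with 8 tumors in each of 4 groups. The mice were untreated females, 8 to 10 weeks of age, and tumors were collected on day 10 after inoculation. AB1 IPL tumors grew in BALB/c mice from 500000 AB1 cells placed in the pleural space in 200 µL, and AB1 SC tumors from the same number of cells placed under the skin of the flank in 100 µL. AE17 IPL and AE17 SC tumors grew in C57BL/6 mice from 1000000 AE17 cells in the same volumes. Both lines were made from mouse mesothelioma, a cancer of the lining of the chest. Each model is 1 cell line in 1 mouse strain at 1 cell number, so line, strain and inoculum cannot be told apart between the models. By the study's methods the lungs and adjoining tissue were taken off each tumor before it was preserved, and cells were not sorted. In such bulk samples, fewer cells of a type and less RNA per cell cannot be told apart.

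Schwann cells are the glia of peripheral nerves. They arise from the neural crest, ensheathe axons, and either wrap single large axons in myelin or hold several thin axons without it. After nerve injury they lose their myelin program and turn into repair cells that guide regrowing axons. Sox10 is the transcription factor that keeps cells in this lineage. Cdh19 is a cadherin of Schwann cell precursors and of mature Schwann cells. Ngfr is the low-affinity receptor for neurotrophins and is made by immature and repair Schwann cells and by sympathetic and sensory neurons, among others. Gfra3 is the receptor that binds artemin. S100b is a calcium-binding protein of glia that fat cells also make. Mbp encodes the myelin basic proteins of Schwann cells and oligodendrocytes, and the same gene encodes the Golli proteins, which lymphoid cells make. Prx encodes periaxin, a scaffold protein of myelinating Schwann cells, and is also known from lung endothelium. Pmp2 is a fatty acid-binding protein of peripheral myelin. Counts per gene do not separate transcripts of 1 gene, so myelin and Golli transcripts of Mbp enter 1 value.

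The promoters of the genes whose patterns among tumors are compared below are shown for the 3 that were matched to the RefSeq promoters used here (GRCm38.p6). They are S100b, whose level moved with that of Cdh19 from tumor to tumor, and Ngfr and Prx, whose levels had lower correlations with it. Each line gives the bases before the start of the gene as RefSeq has it, 250 for S100b and Prx, 5′ to 3′ on the gene's own strand, at chr10:76253586-76253835 (plus strand) for S100b, chr7:27499074-27499323 (plus strand) for Prx and chr11:95587736-95587948 (minus strand) for Ngfr. For Ngfr the 37 bases nearest to the RefSeq start lie within the gene as GENCODE M21 has it and are left out, which leaves 213. Capitals mark the GC box GGGCGG on either strand.
S100b: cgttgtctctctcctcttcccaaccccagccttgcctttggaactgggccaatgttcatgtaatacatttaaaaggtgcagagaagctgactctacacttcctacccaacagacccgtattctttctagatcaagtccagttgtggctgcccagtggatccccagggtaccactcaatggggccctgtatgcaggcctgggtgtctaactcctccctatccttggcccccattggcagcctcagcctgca
Prx: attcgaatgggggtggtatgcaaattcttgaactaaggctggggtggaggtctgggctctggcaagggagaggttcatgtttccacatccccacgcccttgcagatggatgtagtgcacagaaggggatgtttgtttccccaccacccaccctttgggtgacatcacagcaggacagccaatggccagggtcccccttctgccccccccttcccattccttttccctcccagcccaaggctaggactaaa
Ngfr: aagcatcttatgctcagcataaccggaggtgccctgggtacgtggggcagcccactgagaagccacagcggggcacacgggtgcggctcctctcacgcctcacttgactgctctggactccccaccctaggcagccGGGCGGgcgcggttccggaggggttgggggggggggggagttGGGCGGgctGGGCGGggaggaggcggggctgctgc
The GC box occurred 3 times in the bases shown for Ngfr, with 1 more in the 37 left out, and not before S100b or Prx. It occurred in 32.7% of 32851 mouse promoters of 250 bases. The letters ACAAAG and ACAATG, which are cores of sites bound by SOX proteins, were searched on both strands and were in none of the 3 windows. They were in 16.5% and 10.7% of all the promoters. A match is a description of the sequence only.

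On GRCm38 (GENCODE M21), Cdh19 lies on chromosome 1 from 110888326 to 110977584 and Pmp2 on chromosome 3 from 10179851 to 10183929, both on the minus strand. Prx lies on chromosome 7 from 27499324 to 27520214 and S100b on chromosome 10 from 76253853 to 76261159, both on the plus strand. Ngfr lies on chromosome 11 from 95568818 to 95587735 on the minus strand, and Mbp on chromosome 18 from 82475146 to 82585637 on the plus strand. All 6 are protein-coding genes. The end of S100b overlaps the end of Dip2a on the other strand, whose median level was between 73.8 and 124 CPM in the 4 groups. Without the strand of the reads, which the sources used here do not give, S100b reads in that overlap cannot be told from those of Dip2a. Pmp2 lies inside Gm37389 on the same strand, which had 0 counts in all groups. An antisense gene overlaps Prx, Gm15541, with at most 25 counts in a group. A pseudogene of a ribosomal protein, Rpl21-ps8, lies within Mbp on the other strand, and its median was between 1.89 and 2.13 CPM in AB1 tumors and between 109 and 122 CPM in AE17 tumors.

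Total counts per tumor ranged from 15432258 to 20649645. Levels are given as CPM, counts relative to 1000000 reads of the library after TMM scaling for its composition. A detection limit of 3 counts lay between 0.139 and 0.190 CPM, depending on the tumor. This limit covers counting error only. Within the AB1 model all 8 IPL tumors were sequenced on lane 3, with 2 SC tumors, and the other 6 SC tumors on lane 2. Within the AE17 model all 8 SC tumors were on lane 1, with 3 IPL tumors, and the other 5 IPL tumors on lane 2. The models shared only lane 2, with AB1 SC and AE17 IPL tumors. Nothing in the labels ties tumors of 2 groups to each other, and each tumor is a separate mouse.

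Mbp and Prx were well above the detection limit in every tumor, Ngfr was lower, and Cdh19, S100b and Pmp2 were near it. Per kilobase of exon, the mean level in AB1 IPL tumors was 2.74 CPM for Prx, 1.85 for Mbp, 0.361 for S100b, 0.263 for Ngfr, 0.257 for Pmp2 and 0.0556 for Cdh19. The values per kilobase of S100b, Ngfr and Pmp2 in these tumors differed by less than their SDs, of 0.272, 0.157 and 0.133. In AE17 SC tumors Prx was at 2.17 ± 0.319 (SD, n = 8), Mbp at 1.83 ± 0.499, Ngfr at 0.901 ± 0.471, S100b at 0.181 ± 0.0823 and Cdh19 at 0.0088 ± 0.0104, with no count of Pmp2. Prx and Mbp differed there by less than the SD of Mbp.

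**Figure D1:**
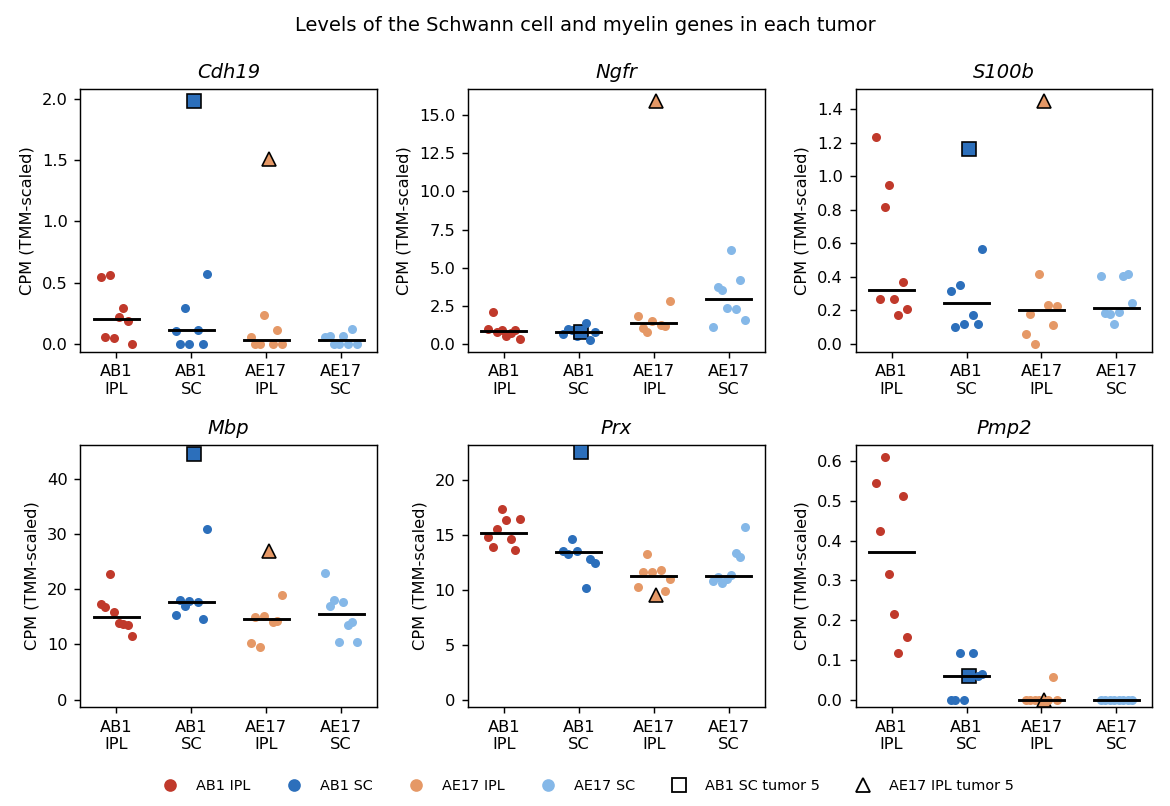
Level of each of the 6 genes in every tumor, as TMM-scaled CPM on a linear axis, by group; each point is 1 tumor and the black line is the median of 8. The square (AB1 SC tumor 5) and the triangle (AE17 IPL tumor 5) lie far above the other tumors of their groups for Cdh19 and S100b, and Pmp2 is high in AB1 IPL tumors.

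Cdh19, the Schwann cell cadherin, was rare. It had between 0 and 0.560 CPM in AB1 IPL tumors (median 0.201) and between 0 and 1.98 CPM in AB1 SC tumors (median 0.111). It had between 0 and 1.51 CPM in AE17 IPL tumors (median 0.0297) and between 0 and 0.119 CPM in AE17 SC tumors (median 0.0291). One tumor of a group held much of these counts. AB1 SC tumor 5 had 34 of the 52 counts of its group, AE17 IPL tumor 5 had 25 of 32, and no AE17 SC tumor reached 3 counts. All 4 groups overlapped in level.

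S100b, the glial calcium sensor, had between 0.175 and 1.24 CPM in AB1 IPL tumors (median 0.321) and between 0.101 and 1.16 CPM in AB1 SC tumors (median 0.245). In AE17 IPL tumors it had between 0 and 1.45 CPM (median 0.203), and in AE17 SC tumors between 0.120 and 0.416 CPM (median 0.216). AE17 IPL tumor 5 was the highest of all 32 with 24 counts, and AB1 SC tumor 5 the highest of its group with 20 counts. In AB1 IPL no single tumor stood out, with 25, 18 and 16 counts in tumors 1, 4 and 3. The groups overlapped.

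Ngfr, the neurotrophin receptor, had between 0.313 and 2.13 CPM in AB1 IPL tumors (median 0.829) and between 0.241 and 1.40 CPM in AB1 SC tumors (median 0.757). It had between 1.11 and 6.14 CPM in AE17 SC tumors (median 2.94), and 7 of these 8 tumors were above every AB1 SC tumor. AE17 IPL tumors had between 0.803 and 15.9 CPM (median 1.36). Of the 442 Ngfr counts of that group, 264 were in tumor 5, and the other 7 tumors had between 0.803 and 2.85 CPM.

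Mbp had between 11.5 and 22.8 CPM in AB1 IPL tumors (median 14.9), between 14.5 and 44.4 in AB1 SC (median 17.7), between 9.58 and 26.9 in AE17 IPL (median 14.6) and between 10.4 and 22.9 in AE17 SC tumors (median 15.6). The highest Mbp values of AB1 SC and AE17 IPL were those of tumor 5 in each group, and AB1 SC tumor 8 was second in its group with 30.9 CPM. The medians of the 4 groups differed by less than the SD within any group, which was between 3.47 and 10.4 CPM.

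Prx was the most even of the 6 genes. It had between 13.6 and 17.3 CPM in AB1 IPL tumors (median 15.1), between 10.1 and 22.5 in AB1 SC (median 13.4), between 9.53 and 13.2 in AE17 IPL (median 11.3) and between 10.6 and 15.7 in AE17 SC tumors (median 11.2). AB1 SC tumor 5 was the highest of all 32, while AE17 IPL tumor 5 was the lowest. The lowest AB1 IPL tumor was above the highest AE17 IPL tumor, in a comparison where 63.4% of all genes tested differed. How many of all genes separate groups of tumors in this way, here or for Ngfr and Pmp2, was not counted.

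Pmp2 was detected mainly in AB1 IPL tumors. The 8 AB1 IPL tumors had 11, 8, 12, 6, 4, 2, 11 and 3 counts, between 0.117 and 0.611 CPM (median 0.370). AB1 SC tumors had between 0 and 2 counts each, at most 0.118 CPM, and 7 of the 8 AB1 IPL tumors were above every AB1 SC tumor. In the AE17 model 1 count was found in 1 of the 8 IPL tumors and none in the SC tumors. Tumor 5 did not stand out for Pmp2 in AB1 SC, with 1 count, nor in AE17 IPL, with 0.

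The first question of the design is how IPL tumors differ from SC tumors of the same cells. Mbp, Prx and Ngfr had enough counts to be tested with edgeR's quasi-likelihood test across all genes that passed its filter on low counts. In AB1, 23% of 14645 genes tested differed between the sites at an adjusted p under 0.05, and 0 of these 3 genes did. The share was 2.64% with the sequencing lane as a covariate and 1.06% of 15993 genes within lane 3, and lane and site largely coincided. At an unadjusted p under 0.05 there was 1, Mbp, and there were 5096 of all 14645 genes. With a log2 fold change of IPL over SC of −0.50 (SE 0.22), Mbp had an unadjusted p of 0.0367 and an adjusted p of 0.116. Ngfr differed by 0.19 (SE 0.34, adjusted p = 0.715) and Prx by 0.10 (SE 0.12, adjusted p = 0.572). The value of Mbp rested on 1 tumor in part, and was −0.27 without AB1 SC tumor 5. With the lane as a covariate Mbp was at −0.10 (SE 0.34, adjusted p = 0.910), and within lane 3 at −0.15.

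Cdh19, S100b and Pmp2 did not pass the filter, and their values come from a fit of all genes with a count, in which 13.5% of 28091 genes differed between the AB1 sites. In the same fit 7.99% of genes were higher in IPL tumors, and Pmp2 was one of them. It was higher in AB1 IPL than in AB1 SC tumors by 2.71 on the log2 scale (SE 0.54), 6.53-fold, with an adjusted p of 0.0018. DESeq2 called Pmp2 too, and none of the other 5 genes, where it called 21.3% of all genes. From the summed counts alone, 57 against 7, the ratio was 7.39 with a 95% counting interval from 3.37 to 19.2. Within lane 3 both AB1 SC tumors had 0 counts of Pmp2 against the 57 of the IPL tumors, and the adjusted p was 0.0882 with these 10 tumors alone. With the lane as a covariate it was 0.033. The fitted differences were then 5.84 and 5.78 on the log2 scale, against 2.71, and with SC tumors of the lane at 0 they depend on the prior count. Cdh19 differed by −0.63 (SE 0.90, adjusted p = 0.685), and by 0.66 without AB1 SC tumor 5. S100b differed by 0.58 (SE 0.52, adjusted p = 0.477).

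In AE17, 5.73% of 14668 genes tested differed between the sites, and again 0 of the 3 genes did, with 0 at an unadjusted p under 0.05 and 0 by DESeq2. Of all genes, 3696 had an unadjusted p under 0.05, and DESeq2 called 9.72%. The number called by edgeR went from 316 genes (2.14%) without AE17 IPL tumor 4 to 2066 genes without AE17 SC tumor 1, and was 1 gene (0.00682%) with the lane as a covariate. Mbp differed by 0.00 on the log2 scale with a 95% interval from −0.40 to 0.40, and Prx by −0.12 (SE 0.10, adjusted p = 0.455). Ngfr differed by 0.09 (SE 0.59, adjusted p = 0.940) with all tumors. Without AE17 IPL tumor 5 it was lower in IPL tumors by 1.06 on the log2 scale, with an adjusted p of 0.0634, which missed the threshold. In the unfiltered fit, where 1.93% of genes differed, Cdh19 was at 2.45 (SE 1.09, adjusted p = 0.249) and S100b at 0.30 (SE 0.59, adjusted p = 0.817). Without AE17 IPL tumor 5 Cdh19 was at 0.55.

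**Figure D2:**
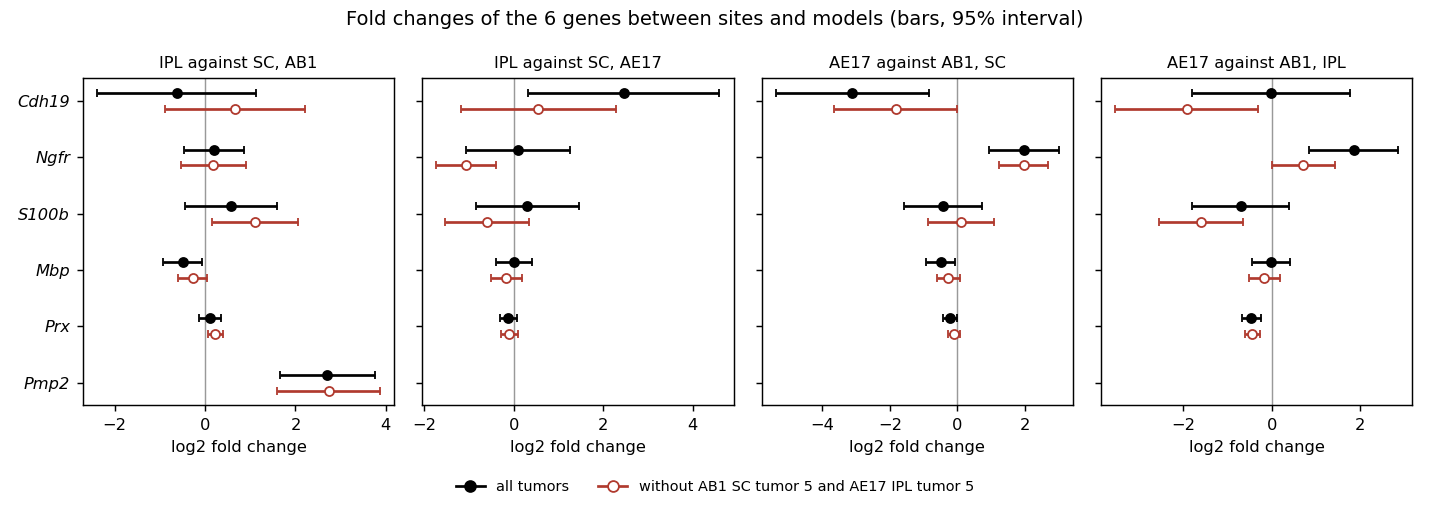
Log2 fold change of each gene between sites and between models, with 95% intervals (normal approximation), for all tumors (filled) and without AB1 SC tumor 5 and AE17 IPL tumor 5 (open); Cdh19, S100b and Pmp2 come from the fit without a filter, and Pmp2 is drawn only where both groups have more than 3 counts. Pmp2 in AB1 is at 2.71 with all tumors and 2.73 without the 2, while the intervals of Cdh19, S100b and Ngfr shift when the 2 tumors are left out.

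The second question is how the models differ at the same site. In SC tumors, 58.3% of 15681 genes tested differed between AE17 and AB1, with 29.7% higher in AE17 and 28.6% lower. Of the 3 genes, 1 was higher and none lower. Ngfr was 3.93-fold higher in AE17 SC tumors, by 1.97 on the log2 scale (SE 0.53, adjusted p = 0.0018). Mbp differed by −0.50 (SE 0.22, adjusted p = 0.0532) and Prx by −0.22 (SE 0.11, adjusted p = 0.0903). In the unfiltered fit, in which 34.5% of genes differed and 16.8% were lower in AE17, Cdh19 was lower in AE17 SC tumors by 3.11 on the log2 scale (SE 1.16, adjusted p = 0.0355). This value did not hold without AB1 SC tumor 5, where it was −1.82 with an adjusted p of 0.251, and was −0.46 with the lane as a covariate. With the lane 33.6% of the genes that passed the filter differed, and Ngfr was among them (adjusted p = 0.00775). Pmp2 was lower in AE17 SC tumors (adjusted p = 0.00844), on 7 counts against 0, and DESeq2, which called 44.5% of all genes, did not call it (adjusted p = 0.0715). The 95% counting interval of the AB1 SC over AE17 SC ratio had a lower limit of 1.37.

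In IPL tumors, 63.4% of genes differed between the models, with 31.8% higher in AE17 and 31.6% lower. Of the 3 genes, 1 was higher and 1 lower. Prx was lower in AE17 IPL tumors by 0.46 on the log2 scale (SE 0.11, adjusted p = 0.000594), which is 1.38-fold. Leaving out each tumor in turn kept this difference between −0.52 and −0.44. Ngfr was higher in AE17 IPL tumors by 1.85 (SE 0.52, adjusted p = 0.00239). Without AE17 IPL tumor 5 the difference was 0.71 with an adjusted p of 0.0834. Mbp differed by −0.01 (SE 0.22, adjusted p = 0.962). With the lane as a covariate, Prx was at −0.55 (adjusted p = 0.073) and Ngfr at 2.30 (adjusted p = 0.0865), where 31.9% of genes were called, and no AB1 IPL and AE17 IPL tumors shared a lane. In the unfiltered fit, where 38.3% of genes differed and 19.3% were lower in AE17, Pmp2 was lower in AE17 IPL tumors (adjusted p = 1.25e-06). The ratio of AB1 IPL over AE17 IPL counts, 57 against 1, was 50.1 with a 95% counting interval from 8.63 to 2012. S100b differed by −0.71 (adjusted p = 0.346), and by −1.60 with an adjusted p of 0.0154 without AE17 IPL tumor 5.

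The difference of the site effects between the models was tested in 1 fit of all 32 tumors. Of 15681 genes, 20.5% passed the threshold, and 0 of the 3 genes did, with 0 at an unadjusted p under 0.05 and 0 by DESeq2. Of all genes, 5135 had an unadjusted p under 0.05, and DESeq2 called 18.8%. The share was 0.746% by edgeR with the lane as a covariate. The interaction was 0.48 for Mbp (SE 0.31, adjusted p = 0.294), −0.24 for Prx (SE 0.16, adjusted p = 0.300) and −0.12 for Ngfr (SE 0.72, adjusted p = 0.929), where positive values mean a higher IPL over SC ratio in AE17. Without AB1 SC tumor 5, Prx was at −0.37 with an adjusted p of 0.0382. Cdh19, S100b and Pmp2 did not pass in the unfiltered fit, in which 9.01% of genes did. For Cdh19 the interaction was 3.09 (95% interval 0.14 to 6.03, adjusted p = 0.230), and it was −0.094 without AB1 SC tumor 5 and AE17 IPL tumor 5. The site effect on Pmp2 in AB1 was not shown to differ from that in AE17 (adjusted p = 0.934), where Pmp2 had 1 count.

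Related genes of Schwann cells and nerve were taken from lists of 54 genes, of which 47 had a row. In AB1, 30 of them were tested between the sites. Among these, 8 were higher in IPL tumors and 4 were lower, where 12.3% and 10.7% of all genes tested were. In AE17, 27 were tested, and 2 were higher and 3 lower, where 2.60% and 3.13% of all genes tested were. The median log2 fold change of those tested was 0.05 in AB1 and 0.04 in AE17, against 0.00 over all genes tested in each model. Between the models, 9 of 32 were higher and 10 lower in AE17 SC tumors, where 29.7% and 28.6% of all genes tested were. In AE17 IPL tumors 9 were higher and 13 lower, where 31.8% and 31.6% were. For the interaction, 1 of 32 was higher and 8 lower, where 8.62% and 11.9% of all genes tested were. With the lane as a covariate, chosen for these genes after seeing the data, 2 of the 12 calls between the AB1 sites held (Egr2 and Gap43), 0 of the 5 between the AE17 sites, 13 of the 19 in SC tumors, 11 of the 22 in IPL tumors and 0 of the 9 for the interaction. Over all genes called, 11.4%, 0.119%, 56.5%, 49.5% and 3.61% held in the same order.

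Of the transcription factors, Egr2, which drives myelination and is also induced in immune cells, was lower in IPL tumors of both models. Its log2 fold change was −1.66 in AB1 (SE 0.25, adjusted p = 0.00021) and −0.51 in AE17 (SE 0.09, adjusted p = 0.00761). Its adjusted p was 0.0313 in AB1 and 0.191 in AE17 with the lane as a covariate. Pou3f1, a factor of the promyelinating stage, had at most 0.198 CPM in AB1 IPL and 0.118 CPM in AB1 SC tumors. It had between 10.0 and 21.8 CPM in AE17 IPL and between 2.48 and 12.3 CPM in AE17 SC tumors, and was higher in AE17 IPL than in AE17 SC tumors by 1.20 (adjusted p = 0.0307). This call was lost with the lane as a covariate (1.51, adjusted p = 0.147) and held in 10 of the 16 fits that left out 1 tumor. Sox2, a factor of immature Schwann cells and of stem cells, was lower in AE17 IPL tumors by 2.99 on the log2 scale (SE 0.49, adjusted p = 0.00632), and by 2.97 with the lane as a covariate, where the call was lost (SE 0.75, adjusted p = 0.159). Pax3, a neural crest factor, had a median of 5.82 CPM in AE17 IPL and 4.24 CPM in AE17 SC tumors, against 0.0787 CPM in AB1 IPL tumors and 0 counts in AB1 SC tumors. Foxd3 and Zfp536 had at most 21 counts in a group.

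Of the 10 myelin protein genes, 7 were tested in AB1, and Pmp22 was higher and Mag lower in IPL tumors, where 12.3% and 10.7% of all genes tested were. Pmp22, which encodes a membrane protein of myelin that many other cells make, was higher by 0.57 (SE 0.19, adjusted p = 0.0337), and Mag, an adhesion protein next to the axon, was lower by 0.61 on the log2 scale (SE 0.19, adjusted p = 0.0296). Neither was called with the lane as a covariate (adjusted p = 0.201 and 0.495), and leaving out 1 tumor kept the calls in 8 and 13 of 16 fits. Of 4 myelin protein genes tested in AE17, 0 were called between the sites, where 5.73% of all genes tested were. Between the models 1 of 7 was higher and 5 lower in AE17 SC tumors, where 29.7% and 28.6% of all genes tested were. In AE17 IPL tumors 1 was higher and 3 lower, where 31.8% and 31.6% were. Those higher were Pmp22 in SC tumors (adjusted p = 0.00404) and Cnp, an enzyme of myelin, in IPL tumors (adjusted p = 0.000266), and neither was called with the lane as a covariate. Drp2, which binds periaxin at the Schwann cell surface, was lower in AE17 by 1.46 in SC tumors (adjusted p = 1.23e-06) and by 1.14 in IPL tumors (adjusted p = 4.01e-05), and both calls held with the lane. Mal, Cldn19 and Gjb1 had medians at most 0.238 CPM in the 4 groups. None of the 3 myelin lipid enzyme genes passed the filter.

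Of the genes of precursor, non-myelinating and repair Schwann cells, 11 were tested in AB1. Cryab, Art3, Ncam1 and Gap43 were higher in AB1 IPL tumors and L1cam was lower, where 12.3% and 10.7% of all genes tested were. Of these calls that of Gap43 held with the lane as a covariate (adjusted p = 0.0447). Cryab, a small heat shock protein that muscle also makes, had a median of 143 CPM in AB1 IPL and 41.2 CPM in AB1 SC tumors (log2 difference 1.69, adjusted p = 0.000409). Its medians in AE17 were 121 and 90.6 CPM, with no call between the sites. Gap43, a growth cone protein, had a median of 263 CPM in AB1 IPL and 176 CPM in AB1 SC tumors, against 4.07 and 3.24 CPM in AE17. Ncam1, a neural adhesion molecule, went the other way between the models, with medians of 5.33 and 1.52 CPM in AB1 IPL and SC tumors and of 74.1 and 78.3 CPM in AE17. Erbb3, the neuregulin receptor of Schwann cells, had medians between 3.37 and 5.28 CPM in the 4 groups, and was lower in AE17 at both sites (adjusted p = 0.000266 in SC tumors and 0.00735 in IPL tumors, and 0.0408 and 0.186 with the lane as a covariate).

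In the same AB1 comparison the skeletal muscle genes moved too, with 7 of 8 higher in IPL tumors (median log2 fold change 3.62), where 12.3% of all genes tested were. Of these 7, 0 were called with the lane as a covariate, at adjusted p from 0.0926 to 0.424. Their summed level was between 102 and 4121 CPM in AB1 IPL tumors and between 53.4 and 424 CPM in AB1 SC tumors, and none was at 0 in every tumor of a group. The adipocyte genes summed to between 39.6 and 328 CPM in AB1 IPL and between 28.2 and 61.6 CPM in AB1 SC tumors, and 2 of 4 tested were higher in IPL tumors, Adipoq and Fabp4. Both calls were lost with the lane as a covariate (adjusted p = 0.483 and 0.364). The part of these tissues in the values of Pmp2, Cryab and the other genes above was not tested. Pmp2 deviated from its group mean with a Pearson r of 0.18 with Acta1 of skeletal muscle and 0.30 with Adipoq of fat over the 32 tumors. These r values cannot show that part. Pmp2 had 7 counts in AB1 SC, 1 in AE17 IPL and 0 in AE17 SC tumors, and centering removes the difference between the sites.

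Of the ligands and partners of the 8 genes, Bdnf, a ligand of Ngfr, was lower in AE17 by 2.45 in SC tumors (adjusted p = 2.86e-14) and by 3.15 in IPL tumors (adjusted p = 1.42e-16). Artn, the ligand of Gfra3, had a median of 20.6 CPM in AE17 IPL and 34.3 CPM in AE17 SC tumors, against 3.21 and 3.38 CPM in AB1, and was lower in AE17 IPL than in AE17 SC tumors by 0.61 (SE 0.17, adjusted p = 0.0472). This Artn call was lost with the lane as a covariate (adjusted p = 0.365) and held in 5 of the 16 fits that left out 1 tumor. Ret, the signaling receptor that Gfra3 works with, was lower in AE17 IPL than in AB1 IPL tumors by 1.11 (adjusted p = 0.0411, and 0.723 with the lane), although 95 of its 154 counts in AE17 IPL were in tumor 5. Sort1, a coreceptor of Ngfr for proneurotrophins, was higher in AB1 IPL than in AB1 SC tumors by 0.95 (SE 0.30, adjusted p = 0.0315), a call lost with the lane as a covariate (adjusted p = 0.427). Nrg1, the axonal growth factor for Schwann cells, was lower in AE17 by 2.56 in SC tumors (adjusted p = 6.39e-15) and by 2.06 in IPL tumors (adjusted p = 6.76e-13).

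**Figure D3:**
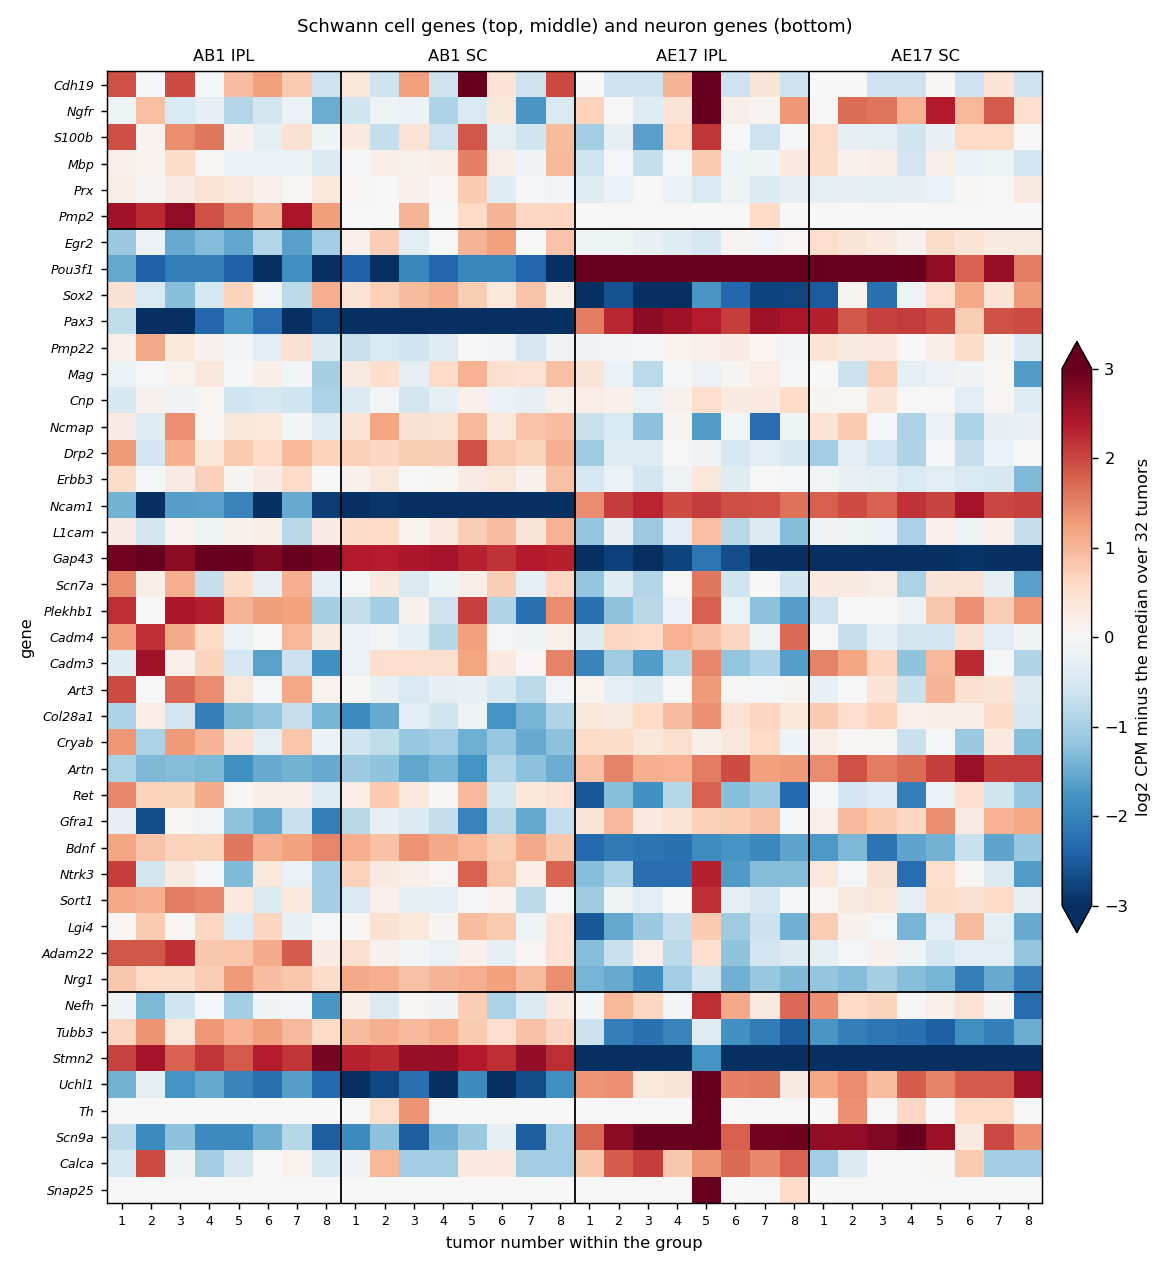
Log2 CPM of each gene minus its median over the 32 tumors (red higher, blue lower, colors limited to 3 in each direction), with tumors in columns by group. Rows are the 6 genes (top), 29 related Schwann cell genes among those whose mean reached 0.5 CPM (middle) and 8 neuron genes whose mean reached 0.2 CPM (bottom); AB1 SC tumor 5 is high for Cdh19, Mbp and Drp2, and AE17 IPL tumor 5 for Ngfr, Cdh19, Th and Snap25.

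AB1 SC tumor 5 had many myelin genes above the other AB1 SC tumors. Its Mbp level was 44.4 CPM (14.5 to 30.9 in the other 7) and its Prx level 22.5 CPM (10.1 to 14.6). Drp2 was at 11.5 CPM (4.69 to 6.37), and Mal, a proteolipid of compact myelin, at 3.49 CPM (0 to 1.07). Ugt8a, an enzyme that makes the galactolipids of myelin, was at 1.86 CPM (0 to 1.07). Of the 10 genes listed as myelin proteins, 8 were highest of the group in this tumor, and 6 were highest of all 32 tumors. Ngfr was not raised there, at 0.757 CPM against 0.241 to 1.40 CPM in the others. Genes of neurons summed to 346 CPM against 306 to 410 CPM in the others. Stmn2 at 278 CPM and Tubb3 at 66.3 CPM made up nearly all of this. Both were called higher in AB1 than in AE17 at both sites, so the sum says little of the other neuron genes. Of the 11 neuron genes with a row 1 was highest of the group in this tumor, Nefh at 0.815 CPM (0.175 to 0.568). Th and Snap25, which sympathetic neurons make, were at 0. Skeletal muscle genes summed to 53.4 CPM (54.5 to 424 in the other 7) and adipocyte genes to 28.2 CPM (28.6 to 61.6), both the lowest of the group. Most of the adipocyte sum was Fabp4, at 23.3 CPM (27.8 to 49.0). Adipoq, at 1.63 CPM (0 to 3.13), Plin1, Cidec and Retn were above the median of the other 7, and Lep was below it.

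AE17 IPL tumor 5 had another set of genes raised. Its Ngfr level was 15.9 CPM, against 0.803 to 2.85 CPM in the other 7 AE17 IPL tumors. Prx was at 9.53 CPM (9.88 to 13.2), the lowest. Scn7a, a sodium channel of non-myelinating Schwann cells and neurons, was at 19.7 CPM (2.85 to 6.49), and Gpr37l1, a receptor of glia, at 1.33 CPM (0 to 0.119). Th, which makes catecholamines in sympathetic neurons, had 314 counts (18.9 CPM) and no count in the other 7 tumors. Snap25 of synapses had 157 counts against at most 1 in the others. Slc6a2, the noradrenaline transporter, had 770 counts against at most 10. Ret was at 5.73 CPM (0.178 to 0.834). Of the 11 neuron genes with a row, 10 were highest of the group in this tumor, and their sum was 105 CPM against 15.1 to 30.7 CPM. The adipocyte genes summed to 917 CPM (18.8 to 69.3) and the heart muscle genes to 208 CPM (4.72 to 35.9). Skeletal muscle genes summed to 779 CPM (56.2 to 543), endothelial genes to 185 CPM (97.5 to 142) and cartilage genes to 57.9 CPM (at most 32.6). The part of these tissues in the Ngfr, Cdh19 and S100b levels of this tumor was not tested. Th, Snap25, Slc6a2 and the other genes of these 2 tumors were named after their values were seen.

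Over the 32 tumors, with each group centered on its own mean, log2 CPM of Cdh19 and S100b had a Pearson r of 0.76 (Spearman rho 0.59), and an r of 0.59 over the 30 tumors without AB1 SC tumor 5 and AE17 IPL tumor 5. For Cdh19 and Mbp the r was 0.71 (rho 0.54), and 0.49 without these tumors. S100b with Mbp had an r of 0.74 (rho 0.65), and 0.60 without them. Ngfr with Cdh19 had an r of 0.48 (rho 0.37), and 0.25 without them. Prx with Cdh19 had an r of 0.15 (rho −0.17), and −0.13 without them. Pmp2 with Cdh19 had an r of 0.30 (rho 0.48), and 0.42 without them. S100b, Ngfr and Mbp also moved with Adipoq, the adiponectin gene of fat, with an r of 0.71, 0.69 and 0.66, and of 0.64, 0.55 and 0.63 without the 2 tumors. The part of fat in these levels was not tested. The points share libraries and, for Cdh19, S100b and Pmp2, rest on few counts.

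**Figure D4:**
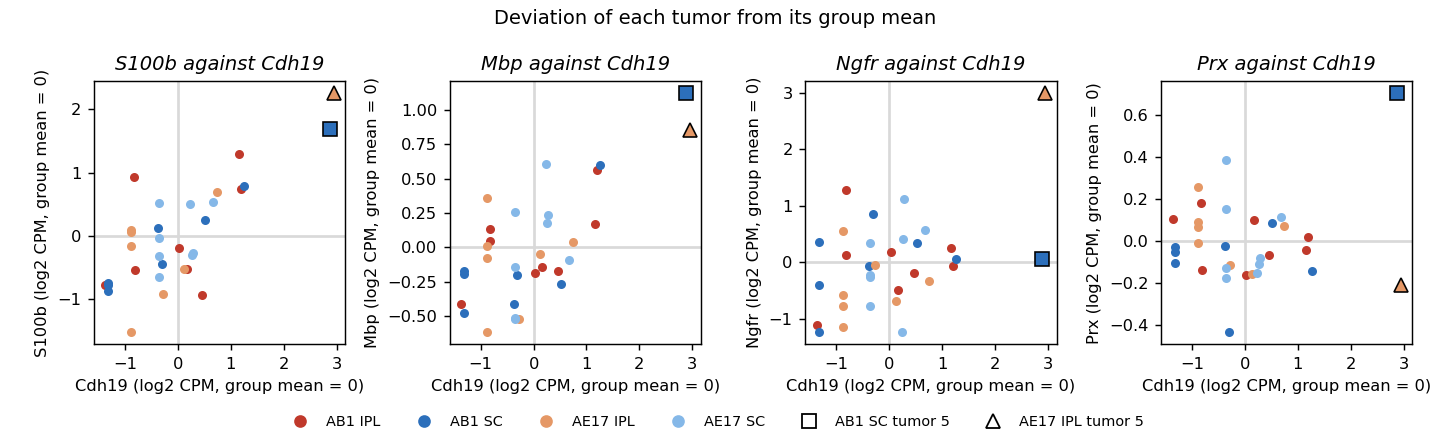
Deviation of each tumor from its group mean in log2 CPM (prior count 2), for S100b, Mbp, Ngfr and Prx (vertical) against Cdh19 (horizontal); each point is 1 tumor. S100b and Mbp increase with Cdh19 (r = 0.76 and 0.71 over 32 tumors), Ngfr less so (r = 0.48), and Prx has an r of 0.15.

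The genes with the pattern among tumors most like that of Mbp, Ngfr and Prx were looked for among 13981 genes, those whose mean reached 1 CPM, by the Pearson r of group-centered log2 CPM over the 32 tumors. For Mbp they were Gimap6 (r = 0.82), Ccdc69 (r = 0.81) and Sept1 (r = 0.81). Without AB1 SC tumors 5 and 8, the 2 farthest from the median, these were 0.88, 0.81 and 0.84. For Ngfr they were Kif1a (r = 0.80), G0s2 (r = 0.80) and Slc6a2 (r = 0.78), and the values were 0.63, 0.66 and 0.56 without AE17 IPL tumor 5 and AE17 SC tumor 5. For Prx they were Anp32b-ps1 (r = 0.63), Impdh2 (r = 0.62) and Phlpp1 (r = 0.61), and the values were 0.61, 0.71 and 0.63 without AB1 SC tumor 5 and AE17 IPL tumor 5. These r values were chosen as the highest of many, and Spearman's rho over the 32 tumors was between 0.53 and 0.87 for the 9 pairs.

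Genes of other cells that make some of the same proteins were examined. Of the oligodendrocyte genes, Olig2 had 0 counts in all 32 tumors, and Mog had between 6 and 18 counts per group. The sum of the 7 oligodendrocyte genes with a row was at most 0.905 CPM in any tumor. Of the melanocyte genes, which other neural crest cells make, Tyr had at most 7 and Tyrp1 at most 26 counts in a group, while Mitf had between 6.10 and 24.1 CPM. The 5 endothelial genes with a row summed to medians between 115 and 124 CPM in the 4 groups. Between the AB1 sites 3 of the 5 were higher in IPL tumors (Tek, Cdh5 and Tmem100) and 1 lower (Car4), and between the AE17 sites 0 of 4 were called. Over all genes tested these shares were 12.3% and 10.7% in AB1, and 5.73% in AE17. With the lane as a covariate, the AB1 calls of Tmem100 and Car4 held and those of Tek and Cdh5 were lost. Pecam1 and Prx had an r of −0.15 over the 32 tumors. The lung epithelium genes Sftpa1 and Sftpb had at most 22 counts in a group. Others of that list were higher, with means over the 32 tumors of 17.3 CPM for Hopx and 3.22 CPM for Ager. Scgb1a1 reached 2.53 CPM in AE17 IPL tumor 3. The 5 genes with a row summed to at most 63.9 CPM, in AE17 SC tumor 6.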

How the data were processed

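Whole tumors from 32 mice were sequenced as 50 bp single-end reads of polyA RNA. The authors mapped the reads (HISAT2 2.0.4 per the labels, in the submitters' processing notes) and deposited counts of reads per gene, without normalization. Their methods name the genome mm11. Strandedness is not given in the sources used here. Coordinates come from GENCODE M21 (GRCm38), in which 39495 of the 39676 gene identifiers were found when versions were ignored, and 36719 when they were not. Promoters come from RefSeq (3 of the 8 genes matched).

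Groups and replicate numbers came from sample titles, and lanes from column names. The sites were compared in each model on its own 16 tumors, and models and the interaction in 1 fit of 32 tumors, with edgeR 4.0.16 in R 4.3.3 (filterByExpr, TMM, robust two-sided quasi-likelihood tests). Adjustment was by Benjamini-Hochberg over every gene tested, at a threshold of 0.05. Alternatives were DESeq2 1.42.0, other scaling, no filter, lane or replicate terms and leaving out tumors. Leaving out 2 tumors together, and the lane and tumor checks of related genes, were chosen after seeing the data. Genes below the filter come from a fit without it. On simulated data, with 200 genes changed between AB1 groups, 168 were tested, 153 recovered, and 4 false calls made. Figures used matplotlib 3.10.9.

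The genes and lists were chosen with earlier results of these data known. The text names the 8 genes, related genes with at least 10 counts, up to 3 genes of each other list by mean CPM, and the 3 genes most like each gene with a mean of at least 0.5 CPM. Other genes, among them defining markers of other cell types, were named after their values were seen. Chi-square per degree of freedom was from 5.92 to 148 over the 112 pairs of tumors of 1 group, so none was counted as a copy. Total counts of 15432258 to 20649645 put the detection limit of 3 counts at 0.139 to 0.190 CPM. Some genes of the lists are not reported here, though the counts and sums of lists hold them.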

Additional observations from a re-analysis of the deposited data

Results flagged for a closer look

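Each of the 6 genes was examined in each group of 8 tumors for a single tumor far from the others, by Dixon's test at the 95% level, and 8 of 23 gene and group pairs had one. Pmp2 in AE17 SC tumors, at 0 in all 8, could not be tested. Chance gives about 1 in 20 groups where values are normally distributed, which sparse counts are not. AB1 SC tumor 5 stood apart for Cdh19 at 1.98 CPM, for S100b at 1.16 CPM and for Prx at 22.5 CPM. AE17 IPL tumor 5 stood apart for Cdh19 at 1.51 CPM, for S100b at 1.45 CPM and for Ngfr at 15.9 CPM. These values belong to the 2 tumors described above with raised myelin genes and raised neuron genes. AB1 IPL tumor 2 stood apart for Ngfr at 2.13 CPM, from 40 counts against 6 to 20 in the others. AE17 IPL tumor 7 stood apart for Pmp2 at 0.0575 CPM, which is 1 count against 0 in the other 7 tumors and is below the detection limit.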

How the results depend on the processing

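The alternative that left out AB1 SC tumor 5 and AE17 IPL tumor 5 together was chosen after seeing the data. The counts that follow are of 3 genes, and of 6 with DESeq2 or without a filter, with the share of all genes called in parentheses. The number called between the AB1 sites was 0 (23%), and 1, Pmp2, with DESeq2 (21.3%) or without a filter (13.5%). Between the models in SC tumors 1 was called (58.3%), against 2 with DESeq2 (44.5%), 3 with total counts (59.3%), 3 without a filter (34.5%) and 1 to 3 leaving out each tumor (56.1% to 61.1%). In IPL tumors 2 were called (63.4%), against 3 with DESeq2 (48.8%), 3 without a filter (38.3%), 0 with the lane as a covariate (31.9%), 1 without both tumors (62.7%) and 1 to 2 leaving out each tumor (61.3% to 63.9%). For the interaction, 0 were called (20.5%), and 0 to 1 leaving out each tumor (17.2% to 23.2%).

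Signs turned for values that had not passed the threshold, and the cause was not tested. Between the AB1 sites, Cdh19 went to 2.07 with the lane as a covariate, to 2.07 within 1 lane and to 0.66 without both tumors. Between the AE17 sites, Ngfr went to −0.49 with the replicate block, −0.83 with the lane, −0.83 within 1 lane and −1.06 without both tumors, and S100b to −0.095, −0.48, −0.47 and −0.60 in the same order. Mbp, at 0.00, went to −0.0012 with DESeq2, −0.0035 with total counts, −0.016 with the replicate block, −0.0015 with all 32 tumors in 1 fit, −0.17 without both tumors and −0.0076 without a filter. Between the models in SC tumors S100b went to 0.49 with the lane and 0.10 without both tumors, and in IPL tumors Cdh19 went to 0.00094 with DESeq2. The interaction for Cdh19 went to −2.03 with the lane and −0.094 without both tumors.

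Leaving out each tumor gave, between the AB1 sites, −0.95 to 0.66 for Cdh19 and −0.087 to 0.38 for Ngfr. Between the AE17 sites it gave −1.06 to 0.31 for Ngfr, −0.60 to 0.49 for S100b and −0.17 to 0.098 for Mbp. Between the models it gave −0.56 to 0.11 for S100b in SC tumors, and −1.92 to 0.27 for Cdh19 and −0.17 to 0.082 for Mbp in IPL tumors. For the interaction it gave −1.26 to 0.18 for Ngfr and −1.19 to 0.0085 for S100b, with 1.18 to 3.52 for Cdh19, and S100b was at −1.71 without both tumors.

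Same-numbered IPL and SC tumors did not deviate together in AB1 (mean r of −0.11, above 0.1 in 0 of 8 pairs). In AE17 the mean r was 0.08, and 5 of 8 pairs were above 0.1, at most 0.27. The labels do not tie these tumors, and the numbers were not taken as pairs. With the replicate block the number of the 3 genes called was the same in all 5 comparisons, which says nothing of the share over all genes. In the unfiltered fit the call of Cdh19 between the models in SC tumors was lost (−3.37, against −3.11, adjusted p = 0.0668). The depth limits Cdh19, S100b and Pmp2, which had at most 84 counts in any group.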

Other observations

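Genes known from neurons differed widely between the models in all tumors, and not only in AE17 IPL tumor 5. Stmn2, a microtubule regulator of growing neurites, had between 181 and 382 CPM in AB1 IPL and between 249 and 332 CPM in AB1 SC tumors, against 0.114 to 15.7 CPM in AE17 IPL and 0.482 to 3.20 CPM in AE17 SC tumors. Tubb3, a neuronal tubulin, had medians of 78.2 and 72.8 CPM in AB1 IPL and SC tumors and of 9.36 and 9.27 CPM in AE17. Uchl1, a ubiquitin hydrolase of neurons, went the other way, with medians of 0.218 and 0.0554 CPM in AB1 and 2.67 and 3.35 CPM in AE17. All 3 genes were called between the models at both sites by edgeR, and with the lane as a covariate all of these calls held except that of Uchl1 in IPL tumors. Stmn2 and Tubb3 were not called between the sites of either model, and Uchl1 was not between the AE17 sites and was not tested between the AB1 sites.

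Sox9, a factor of cartilage and of neural crest, had medians of 24.5 CPM in AE17 IPL and 44.9 CPM in AE17 SC tumors, against 7.32 and 6.81 CPM in AB1. Its site effect differed between the models, with an interaction of −0.88 (SE 0.29, adjusted p = 0.0282, and 0.230 with the lane as a covariate). Among the genes of perineurium and endoneurium, Itgb4, a laminin receptor subunit, was higher in AB1 IPL than in AB1 SC tumors by 1.09 (adjusted p = 0.000936) and lower in AE17 IPL than in AE17 SC tumors by 1.72 on the log2 scale (adjusted p = 0.0261), with an interaction of −2.83 (adjusted p = 0.000131). With the lane as a covariate these adjusted p were 0.152, 0.206 and 0.0692. Cr2, a complement receptor of follicular dendritic and B cells, had 22.9 CPM in AE17 IPL tumor 5. Of the adipocyte genes, all 6 with a row were highest of the 32 tumors in AE17 IPL tumor 5. In AE17, 0 of 5 adipocyte genes and 0 of 8 skeletal muscle genes were called between the sites, where 5.73% of all genes tested were. Of the heart muscle genes, Myl4 was higher in IPL tumors of both models and Tnni3 lower in AB1. Hopx, of lung epithelium among other cells, was lower in IPL tumors of both models. With the lane as a covariate only the AB1 call of Hopx held among these. Cxcl13, a chemokine of lymphoid stroma, was lower in AE17 at both sites. Krt10 was the only keratinocyte gene tested and was higher in AE17 at both sites. The calls of Cxcl13 and Krt10 held with the lane in SC tumors and not in IPL tumors. Keratinocyte genes summed to at most 25.5 CPM in AE17 SC tumors and to at most 4.37 CPM in the other groups. Comp of cartilage was higher in AB1 IPL than in AB1 SC tumors (adjusted p = 0.00204, and 0.180 with the lane), and Col2a1 reached 46.0 CPM in AB1 IPL tumor 4.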
